A study of Mus musculus with 50 samples.

Results

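Of the 5404 SUZ12 peaks of wild-type (WT) mouse embryonic stem cells (ESCs), 1029 (19.04%) were also found in ESCs that lack Ezh2 but not in ESCs that lack both Ezh1 and Ezh2. These peaks, termed Ezh2 KO-kept peaks here, were selected on 3 SUZ12 ChIP-seq peak lists: each WT peak had to be overlapped by 1 bp or more in the Ezh2 KO list and to share no base with a peak of the Ezh1/2 dKO list. They are the SUZ12 sites called where EZH1 was the remaining methyltransferase and not called where neither enzyme was present. Of the other WT peaks, 265 (4.90%) overlapped a dKO peak and are termed dKO-kept, and 4110 (76.1%) overlapped a peak of neither list. Absence from a list means that no peak passed the threshold there and is not a measure of how much SUZ12 was left. The Ezh2 KO list is longer than the dKO list (1578 against 317 peaks), and the sequencing depth behind each is unknown.

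The study asked how the binding of Polycomb repressive complex 2 (PRC2) and its methylation of histone H3 lysine 27 (H3K27) act on target genes. All lines derived from E14TG2a ESCs grown in serum with 2i/LIF, and each mutant is a CRISPR/Cas9 clonal line: Ezh2 KO and Ezh1/2 dKO carry deletions of the whole genes, and Ezh2 Y726D and Ezh2 R685C carry point mutations of EZH2 introduced into Ezh1 KO cells. The labels of the Y726D SUZ12 and H3K27me3 libraries give only the Y726D mutation, whereas the other Y726D libraries also name the Ezh1 KO. For the HA ChIP-seq, dKO ESCs were transfected with Flag-HA-tagged human EZH1 (HA-EZH1) or carried no tagged protein. There was 1 library per line and ChIP or ATAC target, so no difference between lines in peak lists was tested, and there were 2 RNA-seq libraries each for WT, Ezh2 KO, dKO and Y726D ESCs.

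PRC2 consists of the core subunits SUZ12 and EED and 1 of the methyltransferases EZH1 or EZH2, and it places mono-, di- and trimethyl groups (H3K27me1, H3K27me2, H3K27me3) on H3K27. The same lysine can carry an acetyl group (H3K27ac), a mark of active promoters and enhancers, and 1 lysine cannot carry both. In ESCs, PRC2 occupies unmethylated CpG-rich promoters of developmental regulators whose transcription is low. EZH2 is the main methyltransferase of proliferating cells and EZH1 has the weaker activity in vitro. EZH2 with the Y726D change has no methyltransferase activity but still enters the complex.

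The sequences under the summits of 4 of these peaks are shown because the peaks are among the strongest at loci that the study used as Polycomb examples, and because CpG content was compared between the classes. Six2 encodes a homeodomain factor of kidney progenitors, Pax9 a paired-box factor of pharyngeal and skeletal development, and the Hox genes encode homeodomain factors that pattern the body axis. Each sequence is the 300 bases around the WT SUZ12 summit, on the plus strand of mm9, with every CG dinucleotide in capitals. The windows lie at chr17:86086600-86086899 (Six2), chr12:57797434-57797733 (Pax9), chr2:74536601-74536900 (Hoxd9 and Hoxd8) and chr6:52195002-52195301 (Hoxa11 and Hoxa10), and each overlapped an annotated exon.
Six2: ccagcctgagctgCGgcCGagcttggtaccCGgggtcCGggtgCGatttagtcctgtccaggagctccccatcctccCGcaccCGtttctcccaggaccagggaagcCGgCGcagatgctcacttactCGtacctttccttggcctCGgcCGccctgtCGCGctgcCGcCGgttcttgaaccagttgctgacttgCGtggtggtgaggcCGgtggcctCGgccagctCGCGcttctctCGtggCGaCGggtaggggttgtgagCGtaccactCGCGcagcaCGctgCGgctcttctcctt
Pax9: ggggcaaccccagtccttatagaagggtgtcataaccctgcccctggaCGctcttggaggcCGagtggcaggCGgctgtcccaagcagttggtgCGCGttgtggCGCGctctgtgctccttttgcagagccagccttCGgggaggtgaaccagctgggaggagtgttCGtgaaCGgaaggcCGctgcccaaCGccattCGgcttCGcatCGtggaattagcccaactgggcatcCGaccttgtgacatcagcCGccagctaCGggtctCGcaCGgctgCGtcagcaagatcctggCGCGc
Hoxd9/Hoxd8: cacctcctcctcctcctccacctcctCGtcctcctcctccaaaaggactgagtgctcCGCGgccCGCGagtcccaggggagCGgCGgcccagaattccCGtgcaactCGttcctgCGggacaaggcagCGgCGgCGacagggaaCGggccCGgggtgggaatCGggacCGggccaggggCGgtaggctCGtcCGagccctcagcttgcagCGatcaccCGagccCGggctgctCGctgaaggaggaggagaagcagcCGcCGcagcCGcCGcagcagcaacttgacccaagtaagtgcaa
Hoxa11/Hoxa10: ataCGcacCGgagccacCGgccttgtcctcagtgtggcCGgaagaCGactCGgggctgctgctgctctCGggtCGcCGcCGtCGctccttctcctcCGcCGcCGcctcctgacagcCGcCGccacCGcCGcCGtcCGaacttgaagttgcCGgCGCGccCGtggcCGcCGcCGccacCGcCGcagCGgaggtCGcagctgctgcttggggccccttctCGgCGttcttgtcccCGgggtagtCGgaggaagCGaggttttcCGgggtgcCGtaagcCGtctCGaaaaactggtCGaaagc
For comparison, the strongest dKO-kept peak, at chr2:118528855-118529154 near Plcb2, and the strongest peak in neither list, at chr15:102812287-102812586 in Hoxc9, are shown in the same way.
Plcb2, dKO-kept: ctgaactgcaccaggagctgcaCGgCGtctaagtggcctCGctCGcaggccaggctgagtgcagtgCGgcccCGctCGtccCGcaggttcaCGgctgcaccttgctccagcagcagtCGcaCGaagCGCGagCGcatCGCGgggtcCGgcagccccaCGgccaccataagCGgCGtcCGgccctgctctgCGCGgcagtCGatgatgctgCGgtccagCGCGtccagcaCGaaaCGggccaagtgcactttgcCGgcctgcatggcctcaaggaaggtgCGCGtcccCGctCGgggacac
Hoxc9, in neither list: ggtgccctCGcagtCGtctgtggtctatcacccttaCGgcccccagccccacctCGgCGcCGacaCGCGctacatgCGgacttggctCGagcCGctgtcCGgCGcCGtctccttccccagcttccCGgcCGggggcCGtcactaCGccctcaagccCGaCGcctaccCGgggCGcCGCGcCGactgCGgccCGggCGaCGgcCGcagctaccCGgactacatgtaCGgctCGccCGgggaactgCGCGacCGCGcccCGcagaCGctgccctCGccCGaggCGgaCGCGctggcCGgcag
The 4 windows of Ezh2 KO-kept peaks held 23 (Pax9), 28 (Hoxd9/Hoxd8), 29 (Six2) and 41 (Hoxa11/Hoxa10) CG dinucleotides, the dKO-kept window held 34 and the window in neither list 46.

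The summits of the Ezh2 KO-kept peaks were rich in CpG, between the other classes. Their 300-base windows held a median of 26 CG dinucleotides (quartiles 21 to 32), against 30 in dKO-kept peaks and 22 in peaks of neither list. Each of the 1029 windows held at least 1 CG, and 818 (79.5%) held 20 or more, against 94.0% of dKO-kept windows, 56.9% of those in neither list and 63.0% of all WT windows. The median GC content was 66.7%, 68.3% and 64.0% in the same order. Among the WT peaks in the strongest quintile by −log10 p, the Ezh2 KO-kept peaks and the peaks in neither list each had a median of 27 CG dinucleotides, with a median GC content of 67.0% and 67.3%. The letters GCGCGC, on either strand, stood in 343 windows of Ezh2 KO-kept peaks (33.3%), against 27.7% of all WT windows, and within the strongest quintile in 35.5%, against 36.4% of all windows there. GAGAGA stood in 18.8% against 20.2% of all WT windows, and GCCATNTT in 1.65% against 2.07%. GCGCGC contains the CG dinucleotide, so its share is not separate from the CpG count.

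By WT strength, these peaks lay between the other classes. Their median WT −log10 p was 62.7 (quartiles 46.4 to 83.2, range 10.4 to 164), against 94.9 in dKO-kept peaks and 18.4 in peaks of neither list. The median fold enrichment was 17.5, 23.0 and 7.57, and the median width 1763 bp, 2393 bp and 690 bp. When the WT peaks were divided into 5 equal parts by strength, 681 of the 1029 were in the strongest part, where they made up 63.0% of the peaks, and 5 were in the weakest, where they made up 0.463%. Strength and class are therefore not separate, and the CpG content and several of the overlaps with other lists are also given within the strongest quintile.

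In Ezh2 KO ESCs the overlapping peaks were weaker and narrower, which describes the selected peaks and was not tested. The median −log10 p of the best Ezh2 KO peak was 18.6 (range 10.2 to 74.95), its median fold enrichment 7.58 and its median width 771 bp, and 1016 of the 1029 had a lower −log10 p than in WT. Ezh2 KO peaks covered a median of 53.0% of each WT peak (quartiles 36.2 to 69.8). The summits stayed close: the median distance between the WT and Ezh2 KO summit was 124 bp, and 680 of the 1029 were within 200 bp. A single Ezh2 KO peak lay on 854 of the WT peaks, 2 lay on 137, and 3 or more on 38. At the dKO-kept peaks that were also in the Ezh2 KO list, 240 of 265, the median Ezh2 KO −log10 p was 34.4 and the covered share 68.5%.

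**Figure D1:**
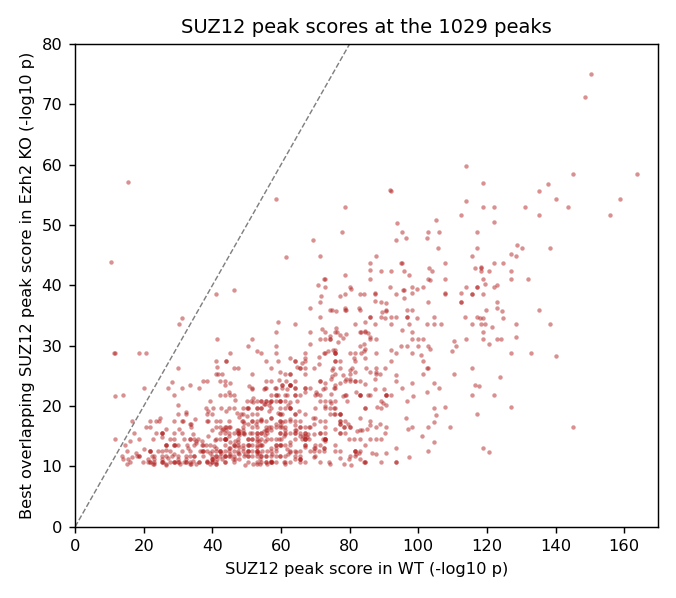
SUZ12 peak scores (−log10 p) of the 1029 Ezh2 KO-kept peaks, with the WT score on the horizontal axis and the best overlapping Ezh2 KO peak on the vertical axis; the dashed line marks equal scores and the vertical axis ends at 80. Of the 1029 points, 1016 have a lower score in Ezh2 KO than in WT, with medians of 18.6 and 62.7.

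The 10 strongest Ezh2 KO-kept peaks included several at genes of developmental transcription factors. The highest WT −log10 p, 164, was that of the Six2 peak at chr17:86083515-86087341, with 58.4 in Ezh2 KO. Next was Emx1 (chr6:85137481-85142248, 159 in WT and 54.3 in Ezh2 KO), a homeodomain factor of the developing cortex. The peak shared by Zic1 and Zic4 (chr9:91255951-91260971), which encode zinc-finger factors of the cerebellum, had 156 and 51.6. Zfp703 (chr8:28087766-28090734) had 150 and 74.95, the highest Ezh2 KO score of all 1029, and Plxnd1 (chr6:115942691-115944790), a semaphorin receptor, had 149 and 71.2. Nkx1-2 (chr7:139788115-139791336) had 145 in WT but only 16.6 in Ezh2 KO, where 13.5% of the peak was covered. Sp9, the proneural gene Neurog2, Fam19a2 and Hoxb6/Hoxb5 completed the 10 strongest, with 140 to 145 in WT and 28.2 to 58.4 in Ezh2 KO. The widest were at the homeobox genes Lhx1 (9442 bp), Dlx2 (8652 bp) and Evx1 (8573 bp), at Gata2 (8362 bp), a factor of blood development, and at Ebf3 (8191 bp). At Evx1 the Ezh2 KO peak covered 8.34% of the WT peak and at Ebf3 85.5%.

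At the limit of the rule, the lowest Ezh2 KO −log10 p among the selected peaks were 10.2 at Mapt, which encodes the microtubule protein tau, 10.3 at Celf4 and 10.3 at the claudin gene Cldn23. Just outside were WT peaks at Nr3c2, Speg and Espn, which ended 16, 22 and 23 bp from an Ezh2 KO peak and shared no base with it.

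Most of these peaks were at promoters. A transcription start site (GENCODE annotation of mm9) lay inside 595 of the 1029 (57.8%, Wilson 95% confidence interval 54.8 to 60.8), within 1 kb of 800 (77.7%) and within 5 kb of 913 (88.7%, against 81.9% of all WT peaks). Of the 116 others, 52 lay in a gene body and 64 outside genes. The strongest without a start site within 5 kb was at chr13:99135628-99137421, with a WT −log10 p of 129. Another Ezh2 KO-kept peak lay within 5 kb of 321 of the peaks, a dKO-kept peak within 5 kb of 62, and 372 had no other WT peak within 5 kb. Their share of the WT peaks of a chromosome ran from 13.4% on chromosome 10 to 23.6% on chromosome 5. In all, 787 protein-coding genes had an Ezh2 KO-kept peak within 5 kb of a start site, 160 of them had 2 or more and 66 had a dKO-kept peak as well.

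Genes of developmental transcription factors were frequent among the targets. Of all 22225 annotated protein-coding genes, 3.54% had such a peak, as had 24.5% of the 3212 with any WT SUZ12 peak within 5 kb. The corresponding share of SUZ12-bound genes was 66.7% for Hox genes (26 of 39, with neighbouring genes of a cluster sharing peaks), 62.6% for the other homeobox genes (72 of 115) and 64.3% for Sox genes (9 of 14). It was 56.0% for forkhead genes (14 of 25), 54.5% for T-box genes (6 of 11) and 3 of 5 for the Gata genes, while for basic helix-loop-helix (bHLH) genes it was 29.0% (9 of 31). Among signalling genes it was 36.1% for Wnt ligands, receptors and antagonists (13 of 36), 33.3% for Fgf ligands and receptors (6 of 18), 41.7% for Bmp and Tgf-beta genes (10 of 24) and 3 of 6 for Hedgehog genes. Axon guidance genes (11 of 42, 26.2%) and ion channels and neurotransmitter receptors (36 of 124, 29.0%) were nearer to the 24.5% of all bound genes. Zic and Sall genes had 2 of 6, and the cyclin-dependent kinase inhibitors (Cdkn genes) none of 3. Of the pluripotency factors 4 were bound, and Esrrb was the 1 with an Ezh2 KO-kept peak. Developmental transcription factors were also frequent near dKO-kept peaks, which lay within 5 kb of 236 of the 3212 bound genes. They lay near 36 of the 115 other homeobox genes, 10 of the 31 bHLH genes and 8 of the 25 forkhead genes. For Hox, Sox and T-box genes the counts were 6 of 39, 2 of 14 and 1 of 11. These shares are descriptions, and no list was tested against others.

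Of 15 loci shown by the study, 9 had an Ezh2 KO-kept peak. Six2 and Hoxa7 had 4 each within 5 kb of a start site, Wnt5a, Pax9, Hoxd9, Lhx5, Hoxb7 and Hoxa10 had 2 each, and Hoxa11 had 1. Wnt5a encodes a ligand of the non-canonical Wnt pathway. Its peaks, at chr14:29317320-29321168 and chr14:29321240-29325130, had a WT −log10 p of 116 and 62.6 and an Ezh2 KO −log10 p of 38.5 and 12.4. Lhx5, Hoxb7 and Hoxa10 also had a dKO-kept peak. Several of the 9 loci also had WT peaks in neither list. These were 3 of 4 at Hoxa11, 4 of 7 at Hoxb7, 4 of 7 at Hoxa10 and 2 of 4 at Pax9. Lhx5, Six2 and Hoxa7 had 1 each, and Wnt5a and Hoxd9 had 0. Cdx2, Fgfr3, Foxd4 and Hmx3 had dKO-kept peaks and no Ezh2 KO-kept peak, and at Olig3 and Mmp25 the WT peaks were in neither list.

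H3K27me3 was listed in Ezh2 KO ESCs at each of these peaks. An H3K27me3 peak overlapped 977 of the 1029 in WT (94.9%, interval 93.4 to 96.1), 1029 in Ezh2 KO (100%, 99.6 to 100) and 1028 in R685C ESCs (99.9%). In dKO ESCs 14 were overlapped (1.36%, 0.812 to 2.27), among them Lmx1b, Tbx2, Chat and Ccnd2, and in Y726D ESCs 1 was (0.0972%), at the imprinted gene Gnas. Among dKO-kept peaks, the shares were 97.0% in WT, 99.2% in Ezh2 KO and 99.6% in R685C. Among peaks of neither list, they were 74.3% in WT, 73.9% in Ezh2 KO and 86.0% in R685C. Within the strongest quintile, an Ezh2 KO H3K27me3 peak overlapped 100% of 681 Ezh2 KO-kept peaks and 91.1% of the 179 in neither list. H3K27me3 and SUZ12 come from the same Ezh2 KO line in separate libraries, and H3K27me3 was not used by the selection. The genes named for the dKO and Gnas, and those of the next sentence, were chosen after their values were seen. The 52 peaks without a WT H3K27me3 peak included Tchh, Shisa6, Fgf5, a growth factor of the primed pluripotent state, Dmrta2 and Man1c1.

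Ezh2 KO H3K27me3 peaks also covered more of the bases in and around these SUZ12 peaks than WT H3K27me3 peaks did. Inside the SUZ12 peaks, 81.2% of the bases were covered in WT, 99.7% in Ezh2 KO and 96.9% in R685C. In the first 200 bp outside the SUZ12 peak, the covered share was 50.4% in WT, 91.7% in Ezh2 KO and 73.4% in R685C. Over the 1.2 kb on each side it was 56.9%, 79.8% and 59.8%, so that the ratio of covered share outside to inside was 0.700 in WT, 0.801 in Ezh2 KO and 0.617 in R685C. Over 4 kb, the WT and Ezh2 KO ratios were 0.497 and 0.498. At dKO-kept peaks the 1.2 kb ratio was likewise higher in Ezh2 KO (0.816) than in WT (0.730). At peaks in neither list the order of the 1.2 kb ratios was the opposite, 0.651 in WT and 0.556 in Ezh2 KO. These are shares of bases inside called peaks, from 1 list per line, and do not measure the density of H3K27me3. The best H3K27me3 peak on an Ezh2 KO-kept peak had a median −log10 p of 23.0 in WT, 327 in Ezh2 KO and 293 in R685C. The WT peaks thus lay nearer to the lower limit of 10 of the lists. By H3K27me3 density at its own target regions, the study reported a lower outside to inside ratio in Ezh2 KO than in WT. The WT and Ezh2 KO lists held 16754 peaks with a median width of 574 bp and 8956 with a median width of 837 bp.

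**Figure D2:**
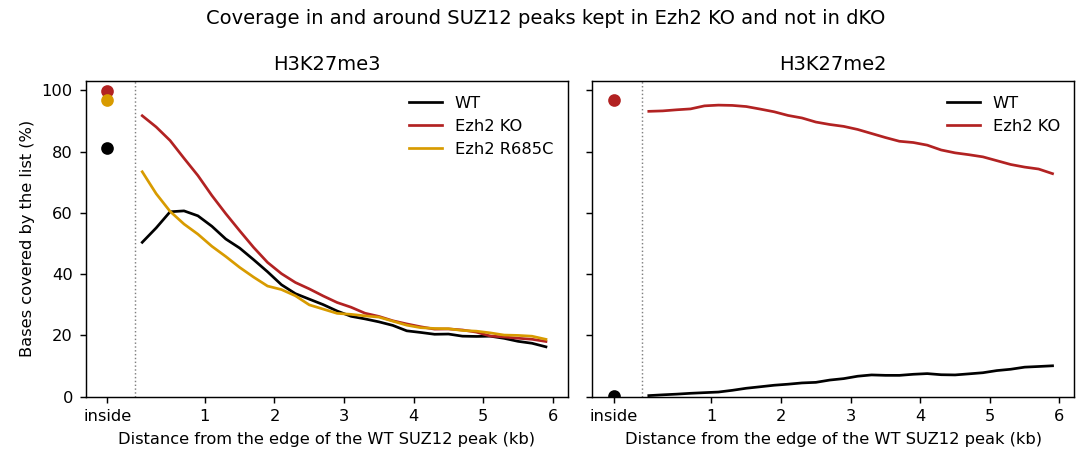
Share of bases covered by H3K27me3 peaks (left) and H3K27me2 regions (right) inside the Ezh2 KO-kept SUZ12 peaks (points) and by distance in kb from their edge in steps of 200 bp (lines), in WT, Ezh2 KO and, for H3K27me3, R685C ESCs. Inside, H3K27me3 covers 81.2% in WT and 99.7% in Ezh2 KO.

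H3K27me2, which the WT list nearly lacked at these peaks, covered them in Ezh2 KO ESCs. On the 19 chromosomes present in all 4 H3K27me2 lists, which hold 985 of the peaks, 0.159% of their bases were covered in WT, 96.9% in Ezh2 KO, 9.40% in dKO and 20.6% in Y726D ESCs. Over all WT SUZ12 peaks of these chromosomes the shares were 2.34%, 95.005%, 9.78% and 22.9%, so the Ezh2 KO value was close to that of SUZ12 peaks in general. The Ezh2 KO regions on the Ezh2 KO-kept peaks had a median −log10 p of 5.96, and those of dKO and Y726D 1.29 and 1.33. H3K27me1 lists shared 9 chromosomes with 541 of the peaks, and 0.238%, 2.93%, 11.8% and 37.6% of the bases were covered in WT, Ezh2 KO, dKO and Y726D. Over all WT SUZ12 peaks of these chromosomes they were 0.286%, 10.03%, 13.2% and 40.1%. The WT value came from 1 of the 541 peaks. The regions behind the Ezh2 KO, dKO and Y726D values had a median −log10 p of 1.45, 1.37 and 1.43. ATAC-seq regions, which mark accessible DNA, covered 71.4%, 69.8%, 70.2% and 72.4% of the bases in the same order of lines. Over all WT SUZ12 peaks they covered 74.6%, 73.8%, 73.8% and 75.6%. The ATAC-seq regions on the Ezh2 KO-kept peaks were weak too, with a median −log10 p of 1.74, 1.77, 1.70 and 1.76. The 4 ATAC-seq lists each covered 604 to 645 Mb of the genome.

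SUZ12 was listed at most of these peaks in the lines that carry a mutant EZH2. A Y726D SUZ12 peak overlapped 818 of the 1029 (79.5%, interval 76.9 to 81.9) and a R685C SUZ12 peak 948 (92.1%, 90.3 to 93.6). Over all WT peaks the shares were 45.4% and 52.4%, and within the strongest quintile they were 91.5% and 96.5% for Ezh2 KO-kept peaks and 70.9% and 79.9% for peaks in neither list. The dKO-kept peaks had 97.7% and 95.8%, and within the strongest quintile 97.7% and 100%. Both mutant lists overlapped 771, R685C alone 177, Y726D alone 47 and neither 34. Where a Y726D peak was present, its median −log10 p was 17.9 and its summit lay a median of 152 bp from the WT summit. The strongest peaks without Y726D SUZ12 were the Hoxa11/Hoxa10 peak at chr6:52193666-52200439 (WT −log10 p 118.7), an intergenic peak at chr2:94080108-94082427 (110), Hoxb8/Hoxb7 (107), a peak at chr8:12395486-12396297 (97.4) and Lef1 (90.6), which encodes a nuclear effector of Wnt signalling. On chromosome 12, 31 of 48 (64.6%) had Y726D SUZ12, against 80.2% on the other chromosomes. Over all WT peaks this share was also lower on chromosome 12, at 29.7% against 46.1%.

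HA-EZH1 in dKO ESCs was listed at nearly all of them. An HA peak overlapped 1011 of the 1029 (98.3%, interval 97.2 to 98.9), against 14 (1.36%) in dKO ESCs without the tagged protein. The share was 97.4% of dKO-kept peaks and 37.2% of peaks in neither list, and within the strongest quintile it was 99.7% of Ezh2 KO-kept peaks and 92.7% of those in neither list. The 18 without an HA peak included Zfyve28, Kcng2, Sox11 and Ikzf3/Zpbp2. HA-EZH1, Y726D SUZ12 and R685C SUZ12 were all listed at 765 of the 1029.

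H3K27ac was listed at few of these peaks in Ezh2 KO and at more of them in Y726D ESCs. In Ezh2 KO ESCs, an H3K27ac peak overlapped 2 of the 1029 (0.194%, interval 0.0533 to 0.706), at Fam84b (chr15:60654199-60656546) and at Grhl2 (chr15:37161689-37164660), an epithelial transcription factor. The dKO list overlapped 61 (5.93%, 4.64 to 7.54), the Y726D list 247 (24.0%, 21.5 to 26.7) and the R685C list 14 (1.36%). The shares among peaks in neither list were higher in each line, at 5.04%, 10.3%, 29.9% and 8.69%, and so were they within the strongest quintile, where the Y726D list overlapped 27.8% of the Ezh2 KO-kept peaks and 53.6% of those in neither list. Among dKO-kept peaks the shares were 1.89%, 4.91%, 20.8% and 3.02% in the same order of lines. Of the 61 peaks with H3K27ac in dKO, 54 also had it in Y726D. The Hoxa7/Hoxa6, Hoxd9/Hoxd8 and Hoxa11/Hoxa10 peaks had H3K27ac in both, whereas the Wnt5a and Pax9 peaks had it in neither. In Y726D ESCs, 208 of the 818 peaks with SUZ12 (25.4%) and 39 of the 211 without (18.5%) had H3K27ac. The H3K27ac lists held 25483 peaks in Ezh2 KO, 17618 in dKO, 40829 in Y726D and 41185 in R685C, and WT H3K27ac was not analysed here.

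**Figure D3:**
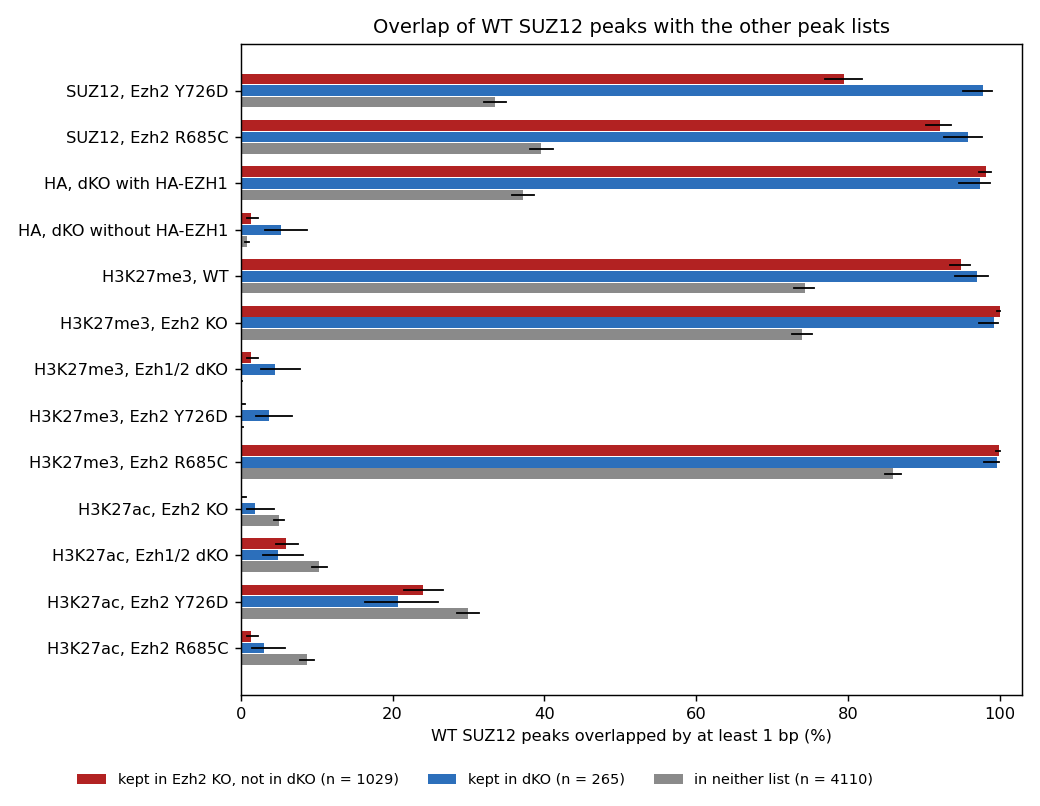
Share of WT SUZ12 peaks overlapped by at least 1 bp in each other peak list (horizontal axis, %), for the Ezh2 KO-kept peaks, the dKO-kept peaks and the peaks in neither list; lines are Wilson 95% intervals for counting error. Ezh2 KO-kept peaks reach 100% for Ezh2 KO H3K27me3 and 98.3% for HA-EZH1 and stay at 0.194% for Ezh2 KO H3K27ac.

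RNA-seq was used for the expression of the genes with an Ezh2 KO-kept peak within 5 kb of a start site, of which 713 were in the table of 18055 genes. The 8 libraries held 3604123 to 5181553 reads. Ezh2 had 1 to 2 reads in each Ezh2 KO and dKO library and 448 to 567 in WT and Y726D, while Ezh1 had 14 to 27 reads in dKO and Y726D and 170 to 392 in WT and Ezh2 KO. Of 18 pluripotency factors, Pou5f1, Nanog, Sox2 and Esrrb were among the 17 not called in any comparison with WT, and Dppa3 was called. The genes of the peaks were little expressed: the median normalized count of the 713 was 2.96 in WT, 1.57 in Ezh2 KO, 8.09 in dKO and 5.92 in Y726D ESCs. No read was found in either library for 102 of them in WT, 169 in Ezh2 KO, 18 in dKO and 42 in Y726D. Genes with another WT SUZ12 peak only had medians of 12.9, 10.99, 24.8 and 18.4, and genes without a WT SUZ12 peak 121, 127, 128 and 120.

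Many of these genes were too low to be tested. Of the 713, 351 passed a mean normalized count of 5, and a gene that passed only because it was high in 1 line had to differ there. The counts over all 713 genes, from a fit without this filter, are therefore given as well. A gene was called at a Benjamini-Hochberg adjusted p below 0.1 (limma, all genes tested) and a log2 fold change of 1 or more in either direction. All log2 fold changes are on the scale of log2(normalized count + 1), which understates those of low genes. In these bulk libraries, more RNA per cell and more cells that express a gene cannot be told apart. The comparisons with WT share the WT libraries and those with Ezh2 KO share the Ezh2 KO libraries.

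With EZH2 alone lost, no gene was called higher in the fit of all 8 libraries. In Ezh2 KO against WT, 0 of the 351 were higher and 3 were lower, where 0.0937% and 0.31% of all tested genes were called, and the median log2 fold change was −0.50 (−0.01 over all tested genes). At an unadjusted p below 0.05, 8 were higher and 66 lower; edgeR called none higher or lower, and DESeq2 3 higher and 9 lower. Without the filter, none of the 713 was called higher or lower (0.0388% higher over all genes) and the median was −0.38. The 3 lower genes were Trib2, a pseudokinase gene, Aldh1a2, the retinoic acid synthesis enzyme, and Ptrf, a caveola protein. Trib2 had 20.01 and 12.5 normalized counts in WT, 1.05 and 1.94 in Ezh2 KO, 23.1 and 27.5 in dKO and 29.4 and 43.6 in Y726D (log2 fold change −2.78 ± 0.50 SE, adjusted p = 0.0860). Only its Ezh2 KO libraries stood apart as low. Ptrf had 538 and 397 in WT, 139 and 198 in Ezh2 KO, 317 and 448 in dKO and 375 and 497 in Y726D (−1.47 ± 0.26, adjusted p = 0.0830). Aldh1a2 had 127 and 119.4 in WT, 25.1 and 24.2 in Ezh2 KO, 72.5 and 84.4 in dKO and 48.1 and 20.1 in Y726D (−2.27 ± 0.41, adjusted p = 0.0860), so its Y726D libraries were low too. The 3 calls were lost without WT replicate 1, without either Ezh2 KO library or without either dKO library (0 lower), and 6 to 8 were lower without WT replicate 2 or a Y726D library. Of the higher side, 1 gene was called without WT replicate 2, 2 without either Y726D library and 1 with a replicate block.

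Loss of both enzymes was accompanied by higher expression of many of these genes. In dKO against WT, 58 of the 351 were higher and 2 lower, where 3.63% and 0.389% of all tested genes were called, and the median log2 fold change was 0.95 (0.01 over all tested genes). Without the filter 57 of the 713 were higher (7.99%, against 2.69% of all genes and 7.29% of genes with another WT SUZ12 peak only). The median was 0.90 (0.07 over all genes). Against Ezh2 KO, 104 were higher and 0 lower, against 3.52% and 0.0577% of all tested genes, with a median of 1.59 (−0.01 over all tested genes). Here 3 were lower at an unadjusted p below 0.05, and edgeR and DESeq2 called 0 lower and 105 and 102 higher. Without the filter 125 of the 713 were higher (17.5%, against 3.24% of all genes) with a median of 1.32 (0.04 over all genes). The counts rest on both dKO libraries. Without dKO replicate 1 or 2, with the remaining library assumed to vary like the others, 0 genes were called higher against WT in each case, with 7 and 1 over all genes. Against Ezh2 KO, 11 and 13 were then called, and without Ezh2 KO replicate 1 or 2, 38 and 48. The medians without each of these libraries stayed between 0.94 and 1.08 against WT and between 1.49 and 1.72 against Ezh2 KO.

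In Y726D ESCs fewer of these genes were called higher than in dKO ESCs, as was the case over all tested genes. Against WT, 36 of the 351 were higher and 5 lower, where 1.66% and 1.06% of all tested genes were called, with a median of 0.79 (−0.01 over all tested genes). Without the filter 27 of the 713 were higher (3.79%, against 0.925% of all genes and 3.29% of genes with another WT SUZ12 peak only). The median was 0.56. Against Ezh2 KO, 83 were higher and 1 lower, where 2.31% and 1.21% of all tested genes were called, with a median of 1.31 (0.00 over all tested genes). Without the filter 74 of the 713 were higher (1.42% of all genes) with a median of 0.94. Calls against WT fell to 14 without either dKO library, to 22 without WT replicate 2 and to 21 without Y726D replicate 2. Calls against Ezh2 KO fell to 33 and 25 without Ezh2 KO replicate 1 and 2, to 52 and 51 without dKO replicate 1 and 2 and to 37 without Y726D replicate 2. The difference between dKO and Y726D was not tested here.

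Genes with other WT SUZ12 peaks also had positive median fold changes in dKO ESCs. Without the filter, the median log2 fold change in dKO against Ezh2 KO was 1.32 for the 713 genes, 1.16 for 153 genes with a dKO-kept peak and no Ezh2 KO-kept peak, 0.74 for 2125 genes with another WT peak only and −0.02 for 14433 genes without a WT SUZ12 peak. Against WT the medians were 0.90, 0.74, 0.70 and 0.00, and for Ezh2 KO against WT −0.38, −0.29, −0.03 and 0.00. The shares called higher in dKO against Ezh2 KO were 17.5%, 11.8%, 8.42% and 1.70% in the same order of classes. In dKO against WT they were 7.99%, 4.58%, 7.29% and 1.78%. These are descriptions of classes that differ in expression level, and no class was tested against another.

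**Figure D4:**
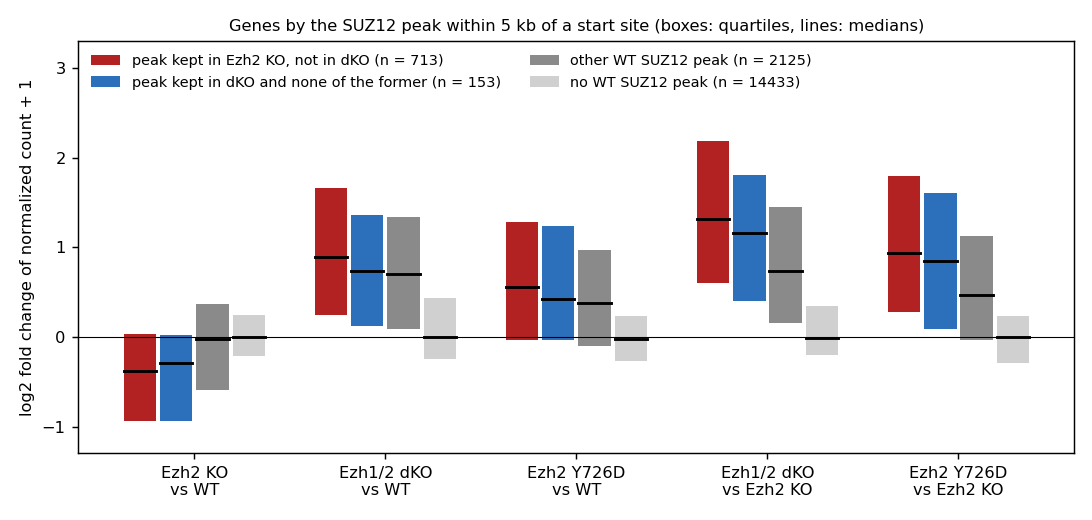
Quartiles (boxes) and medians (lines) of the log2 fold change of normalized count + 1 in 5 comparisons, without a filter on low counts, for genes grouped by the class of WT SUZ12 peak within 5 kb of a start site. The 713 genes with an Ezh2 KO-kept peak have medians of −0.38 in Ezh2 KO against WT and 1.32 in dKO against Ezh2 KO.

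Several Hox genes were higher in dKO ESCs. Of the 23 Hox genes with an Ezh2 KO-kept peak in the table, 10 were higher in dKO than in Ezh2 KO in the fit without the filter (3.24% of all genes), and 10 were higher than in WT (2.69% of all genes). The median log2 fold changes of the 23 were 2.40 and 2.68. Those higher than in Ezh2 KO were Hoxa3, Hoxa7, Hoxa9, Hoxa10, Hoxa11, Hoxb4, Hoxb7, Hoxd8, Hoxd10 and Hoxd13, of which Hoxb4 was not called with the filter, which 12 of the 23 passed. Hoxa10 had 2.67 and 0 normalized counts in WT, 5.23 and 0 in Ezh2 KO, 226 and 223 in dKO and 424 and 493 in Y726D ESCs. Its log2 fold change against Ezh2 KO was 6.50 ± 0.83 (SE, adjusted p = 0.00635) in dKO and 7.52 ± 0.83 (adjusted p = 0.00485) in Y726D. Hoxa9 had 0 and 2.89 in WT, 1.05 and 0 in Ezh2 KO, 61.0 and 50.6 in dKO and 145 and 210 in Y726D. For both genes the dKO and Y726D libraries stood far above all WT and Ezh2 KO libraries. Hoxa10 and Hoxa9 also had a dKO-kept peak within 5 kb.

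Hoxd13 had no read in the 4 WT and Ezh2 KO libraries and 33.8 and 23.1 normalized counts in dKO and 27.6 and 31.3 in Y726D, so it was at least 18.9-fold higher in dKO and at least 19.6-fold higher in Y726D than in Ezh2 KO, with a floor of 3 reads over both libraries. Hoxa11 had 0 and 0 in WT, 2.09 and 0 in Ezh2 KO, 26.4 and 17.8 in dKO and 44.6 and 71.6 in Y726D. Hoxa11os, its antisense transcript, had 98.1 and 63.9 in dKO and 158 and 189 in Y726D and had 1 read in all in the 4 WT and Ezh2 KO libraries. Reads were counted without regard to strand, so the values of Hoxa11 and Hoxa11os cannot be told apart where they overlap. Hoxa7 had 5.34 and 6.74 in WT, 10.5 and 5.81 in Ezh2 KO, 65.1 and 85.2 in dKO and 106 and 232 in Y726D. Hoxb7 had 0 and 0 in WT, 1.05 and 0 in Ezh2 KO, 29.7 and 11.5 in dKO and 20.5 and 6.71 in Y726D. In each of these Hox genes all dKO and Y726D libraries exceeded all WT and Ezh2 KO libraries.

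Calls among the other developmental genes were spread over many families, counted here in the fit without the filter over all genes of each family that had an Ezh2 KO-kept peak and were in the table. Of 63 homeobox genes outside the Hox clusters, 13 were higher in dKO than in Ezh2 KO (Lmx1a, Pitx1, Pou3f1, Irx4, En2, Isl2, Lhx2, Otx1, Pax1, Shox2, Tlx2, Tlx1 and Satb1), and 7 were higher than in WT. The median log2 fold change of the 63 was 1.17 against Ezh2 KO. Sox11 (of 9 Sox genes) and the bHLH genes Atoh1, Bhlhe22 and Hand2 (of 6) were higher than in Ezh2 KO. None of 5 T-box genes and none of the 2 Zic and Sall genes was called in either comparison. Of 3 Gata genes, 2 were called against WT and 0 against Ezh2 KO. Among signalling genes, Wnt5a and Wnt7a (of 13), Fgfr2 (of 5), Bmp1, Bmp6, Bmp7 and Tgfbr3 (of 9) and Dhh (of 3) were higher than in Ezh2 KO. So were the axon guidance genes Sema6a and Efna5 (of 11) and Adra2b (of 30 channels and receptors). These shares can be read against the 3.24% of all genes. Esrrb, the pluripotency factor with such a peak, was not called and had 1812 to 2497 normalized counts over the 8 libraries.

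Wnt5a had 6.67 and 1.93 normalized counts in WT, 2.09 and 3.87 in Ezh2 KO, 50.3 and 31.1 in dKO and 69.5 and 69.4 in Y726D ESCs. Its log2 fold change against Ezh2 KO was 3.39 ± 0.58 (adjusted p = 0.0228) in dKO and 4.18 ± 0.58 (adjusted p = 0.0104) in Y726D, and no dKO or Y726D library overlapped a WT or Ezh2 KO library. Chst11, a chondroitin sulfotransferase gene, had 2.67 and 4.81 in WT, no read in Ezh2 KO, 41.2 and 38.2 in dKO and 19.6 and 20.1 in Y726D, at least 26.3-fold higher in dKO than in Ezh2 KO. Dio3, an imprinted gene for the deiodinase that inactivates thyroid hormone, had 13.3 and 5.78 in WT, 5.23 and 0.968 in Ezh2 KO, 95.6 and 112 in dKO and 18.7 and 26.8 in Y726D. Its dKO libraries stood above those of every other line, Y726D included. Fam174b had 13.3 and 12.5 in WT, 1.05 and 0 in Ezh2 KO, 33.0 and 13.3 in dKO and 42.8 and 98.4 in Y726D.

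Some loci with strong peaks stayed at low counts in all lines. Six2 had 0 to 5 reads in each of the 8 libraries and was not tested. Pax9 had 21.4 and 8.88 normalized counts in dKO and 0 and 4.84 in Ezh2 KO (log2 fold change 2.62 ± 0.95, adjusted p = 0.247), and Hoxd9 13.2 and 9.77 against no read in Ezh2 KO (3.63 ± 1.01, adjusted p = 0.120). Lhx5 had at most 7 reads in a library. Neither Pax9 nor Hoxd9 was called in dKO against Ezh2 KO, although for both genes the dKO libraries lay above the Ezh2 KO libraries. Hoxd9 was at least 7.61-fold higher with the floor of 3 reads.

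Few genes were called lower than in WT, and the calls depended on single libraries. The 2 lower in dKO were 0 without WT replicate 1 or either dKO library and 1 without WT replicate 2 or either Ezh2 KO library. The count of 5 lower in Y726D changed in each fit that left out 1 library. It rose without Y726D replicate 1, as did the count over all tested genes, and fell in every other such fit. Ina, a neuronal intermediate filament gene, had 141 and 105 normalized counts in WT, 47.0 and 8.71 in Ezh2 KO, 20.6 and 17.8 in dKO and 14.3 and 24.6 in Y726D, and Dnajc22 was the other gene lower in dKO. Both were also lower in Y726D, as were Frem2, Aldh1a2 and Fam84b. Fam84b, 1 of the 2 genes whose peak had H3K27ac in Ezh2 KO, had 108 and 87.6 in WT, 106 and 142 in Ezh2 KO, 129 and 180 in dKO and 47.3 and 21.3 in Y726D. Its Y726D libraries lay below all others, and it was the 1 gene lower in Y726D than in Ezh2 KO (log2 fold change −1.91 ± 0.39, adjusted p = 0.0430). That call was lost without Y726D replicate 2 or either Ezh2 KO library. Without Y726D replicate 1 more of these genes were called lower, as was the case over all tested genes.

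**Figure D5:**
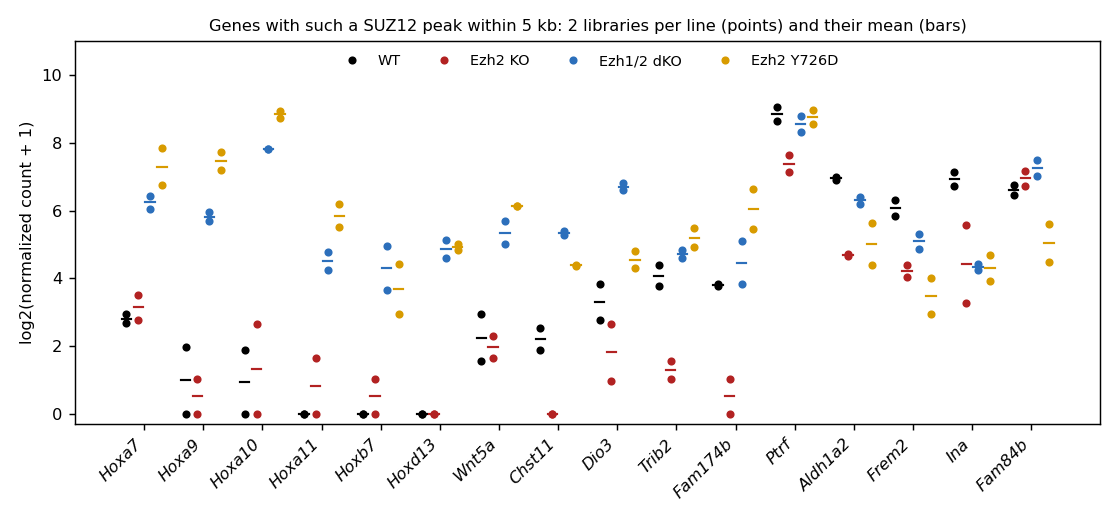
Normalized counts as log2(normalized count + 1) in the 2 libraries (points) of WT, Ezh2 KO, dKO and Y726D ESCs, with their mean (bars), for 16 genes with an Ezh2 KO-kept peak within 5 kb. The Hox genes, Wnt5a and Chst11 are higher in all dKO and Y726D libraries than in all WT and Ezh2 KO libraries, and Trib2 is lowest in Ezh2 KO.

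The calls were also counted by H3K27ac on the Ezh2 KO-kept peak. In the fit without the filter, 21 of the 59 genes with a dKO H3K27ac peak on such a SUZ12 peak (35.6%) were higher in dKO than in Ezh2 KO, against 104 of the 654 without (15.9%), with median log2 fold changes of 2.05 and 1.28. In Y726D against Ezh2 KO, 40 of 204 (19.6%) with a Y726D H3K27ac peak and 34 of 509 (6.68%) without were higher, with medians of 1.25 and 0.85. Of the 59 genes with a dKO H3K27ac peak 50 passed the filter, and of the 654 without it 301, so the groups also differ in expression level, and the difference was not tested.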

How the data were processed

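For ChIP-seq and ATAC-seq, the authors mapped reads to mm9 (Bowtie), discarded duplicates (Picard) and obtained peaks from MACS2. The deposited SUZ12, H3K27me3 and H3K27ac lists give each peak's fold enrichment, a ratio to background, and its −log10 p, per the file headers and the study's methods. Every listed peak had a −log10 p above 10. The deposited HA lists hold positions only. The deposited H3K27me1, H3K27me2 and ATAC lists are broad regions with −log10 p, used as deposited on chromosomes present in all 4 lists. For RNA-seq, the authors aligned with TopHat, counted with HTSeq without strand and divided by DESeq2 size factors. These deposited values, normalized read counts, are a signal in each library, and 100% of values were whole multiples, within 0.001, of the worth of 1 read.

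Overlaps needed 1 bp and were computed on the autosomes, X and Y in Python 3.11.15, numpy 2.4.6 and pandas 2.3.3. Wilson intervals cover counting error only, and reads behind the lists are unknown. Start sites within 5 kb came from GENCODE for mm9. Of 18055 genes, 16570 were matched by symbol, 854 by synonym and 631 not. limma 3.58.1 in R 4.3.3 fitted log2(normalized count + 1) with a trend over all 8 libraries, on the 13872 genes averaging 5 normalized counts or more. The test was kept on normalized counts because the table holds no raw counts; edgeR 4.0.16 and DESeq2 1.42.0 on the recovered reads were alternatives. Scripts were tested on simulated data. The labels do not say whether replicates were separate cultures, so p-values measure the spread between these libraries, which may be technical. Replicate numbers were not taken as pairs: deviations of same-numbered libraries correlated between −0.41 and 0.29.

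The members and gene lists were chosen with earlier results of these data known. Regions named are those at 15 loci of the study, the 10 strongest, the 5 widest, those nearest the limits of the rule and the 5 strongest of each exception. Genes named are the 5 with the largest rise or fall among those called with separate libraries, those of the 15 loci, and Ezh1, Ezh2, Suz12 and Eed; called genes of the gene lists were named after their values were seen. 1 window on an untranslated region was passed over for the sequences. RING1B, H2AK119ub, input and WT H3K27ac were not analysed here.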

Additional observations from a re-analysis of the deposited data

How the results depend on the processing

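Of 270 alternative values, 153 stayed within the limits of the reported value and 117 moved, and the cause was not tested. A reversal was defined only for the median log2 fold changes, and none of those was reversed. Counts and shares have no sign, and each alternative coverage ratio was counted as moved. The 1029 peaks became 561 when Ezh2 KO peaks had to cover at least 50% of the WT peak, 450 with −log10 p of at least 20 in both lists and 171 when the Ezh2 KO list was limited to as many peaks as the dKO list. With an overlap of at least 50% of the WT peak, the shares were 88.6% for WT H3K27me3, 43.6% for Y726D SUZ12, 87.0% for R685C SUZ12 and 94.8% for HA-EZH1. With −log10 p of at least 20 they were 62.9% for WT H3K27me3, 30.1% for Y726D SUZ12, 76.2% for R685C SUZ12, 0.486% for dKO H3K27ac and 6.03% for Y726D H3K27ac. With a distance of 1 kb, 77.7% had a start site. The outside to inside ratio of H3K27me3 in WT, Ezh2 KO and R685C was 0.648, 0.743 and 0.514 without bases of other SUZ12 peaks and 0.497, 0.498 and 0.414 with 4 kb windows.

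Counts lower in Ezh2 KO against WT were 0 without a filter, 0 with edgeR, 9 with DESeq2, 1 with only the 4 libraries compared and 0 to 8 when libraries were left out in turn. With a replicate block, 0 were lower in Ezh2 KO, and 56, 29, 85 and 69 were higher in dKO and Y726D against WT and dKO and Y726D against Ezh2 KO. With only the 4 libraries compared, 10 were higher in Y726D against WT, 182 in dKO and 49 in Y726D against Ezh2 KO. Among genes averaging 20 or more, these last 2 were 53 and 51. Leaving out libraries gave 0 to 76 in dKO and 14 to 29 in Y726D against WT, and 11 to 129 and 25 to 105 against Ezh2 KO.

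The medians of Ezh2 KO against WT, dKO against WT, Y726D against WT, dKO against Ezh2 KO and Y726D against Ezh2 KO were −0.36, 0.77, 0.58, 1.13 and 0.90 with a pseudocount of 5, −0.38, 0.90, 0.56, 1.32 and 0.94 without a filter and −0.45, 0.84, 0.69, 1.32 and 1.14 with a mean of at least 20. Upper-quartile rescaling gave 1.01 for dKO against WT and 1.65 against Ezh2 KO. edgeR gave −0.64 for Ezh2 KO against WT and 1.67 and 1.41 for dKO and Y726D against Ezh2 KO, and DESeq2 gave −0.64, 1.01 for dKO against WT, 1.69 and 1.42. Start sites within 1 kb gave −0.56 for Ezh2 KO against WT. Leaving out libraries gave −0.60 to −0.40, 0.94 to 1.08, 0.61 to 0.81, 1.49 to 1.72 and 1.23 to 1.40. With 1 ChIP-seq library per line and unknown depth, the lists cannot show whether a peak missing from a list was lost or fell below the threshold.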

Other observations

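The WT SUZ12 peaks were not nested between the lines: 25 of the 265 that overlapped a dKO peak overlapped no Ezh2 KO peak. On chromosome 12, 10.4% of the Ezh2 KO-kept peaks (5 of 48) had Y726D H3K27ac, against 24.7% on the other chromosomes. Over all WT SUZ12 peaks this share was also lower on chromosome 12, at 13.8% against 29.0%. Cdx2, a trophectoderm factor with 1 dKO-kept WT peak and 1 in neither list, had 70.7 and 9.63 normalized counts in WT, 1.05 and 25.2 in Ezh2 KO, 28.0 and 83.5 in dKO and 33.0 and 440 in Y726D ESCs, so its 2 libraries differed widely in each line. Olig3, a bHLH factor whose 2 WT peaks were in neither list, had 0 and 0 in WT, 0 and 1.94 in Ezh2 KO, 16.5 and 14.2 in dKO and 16.0 and 24.6 in Y726D. Suz12 and Eed, which encode the other core subunits of PRC2, were called in none of the 5 comparisons.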
